A study of Homo sapiens with 33 samples.

Results

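The RNAs that encode Polycomb repressive complex 2 (PRC2) were followed in K562 cells through 10 genes: the core subunits EZH2, EZH1, SUZ12, EED, RBBP4 and RBBP7, and the accessory subunits JARID2, AEBP2, MTF2 and PHF19. They were taken by symbol, a rule that uses no measured value, although earlier results of these data were known when the genes were chosen. Each had 1 entry among the 58293 entries of the expression table. The study profiled RNA bound by EZH2 in wild type K562, a leukemia cell line of erythroid character, and then perturbed the RNA LEVER in the same line. Values are given here for 5 of its 33 samples, all from wild type K562 cells without an edited locus and with 1 library each. The first is the input RNA of the EZH2 RNA immunoprecipitation (RIP-seq), for which sonicated nuclei of formaldehyde-fixed cells were used, and it holds gene expression as FPKM (sequenced fragments per transcript length and depth). The other 4 are the cytoplasmic fraction, the nuclear fraction, and the nuclear fraction split into polyA+ and polyA- RNA, and they hold the reads on 900 RNA fragments that had been enriched by the EZH2 antibody over IgG. Fragments were given to a gene by position, with 50% of the fragment inside the gene span as the minimum. This placed 4 of the 900 listed fragments in the 10 genes, and all 4 lay in EZH2 itself. Fragments outside this list were not analysed here, so all counts and shares describe the listed ones.

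PRC2 places methyl groups on lysine 27 of histone H3, a mark of silenced chromatin. EZH2 and its paralog EZH1 carry the catalytic SET domain, which works only when SUZ12 and EED are bound: SUZ12 is the scaffold on which the accessory subunits assemble, and EED reads the methyl mark already present. RBBP4 and RBBP7 are histone-binding WD40 proteins that also serve in other chromatin complexes. The accessory subunits define different forms of the complex, one with a Polycomb-like protein such as MTF2 or PHF19 and another with JARID2 and AEBP2. PRC2 binds RNA broadly, and RNA and chromatin compete for it.

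All 10 subunit RNAs were detected in the input RNA. The highest was RBBP4 with 71.8 FPKM and the lowest was JARID2 with 6.26 FPKM. For scale, 21.8% of all entries and 49.2% of protein-coding entries reached 1 FPKM. Among the protein-coding entries that did so, the median was 7.49 FPKM, which 8 of the 10 members exceeded. Read against all 19757 protein-coding entries, the members stood between the 72.6 and the 98.4 percentile, with a median of 91.5. No replicate of the input RNA exists, so the deposited confidence bounds of each value, given below in parentheses, are its only error and cover the estimate from this library alone. They reached from 6.91% of the value on either side for RBBP4 to 20.8% for AEBP2. As a check of the label, 11 of 11 erythroid or K562 marker genes reached 1 FPKM, from HBA1 with 4.73 to HBG2, a fetal globin gene, with 218 FPKM. Of the markers of other blood cells, the T cell gene CD3D had 6.29 FPKM, the monocyte gene LYZ 5.76 and the leukocyte gene PTPRC 14.5, while the other 7 were below 1 FPKM, with CD79A and CD14 listed at 0.

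**Figure D1:**
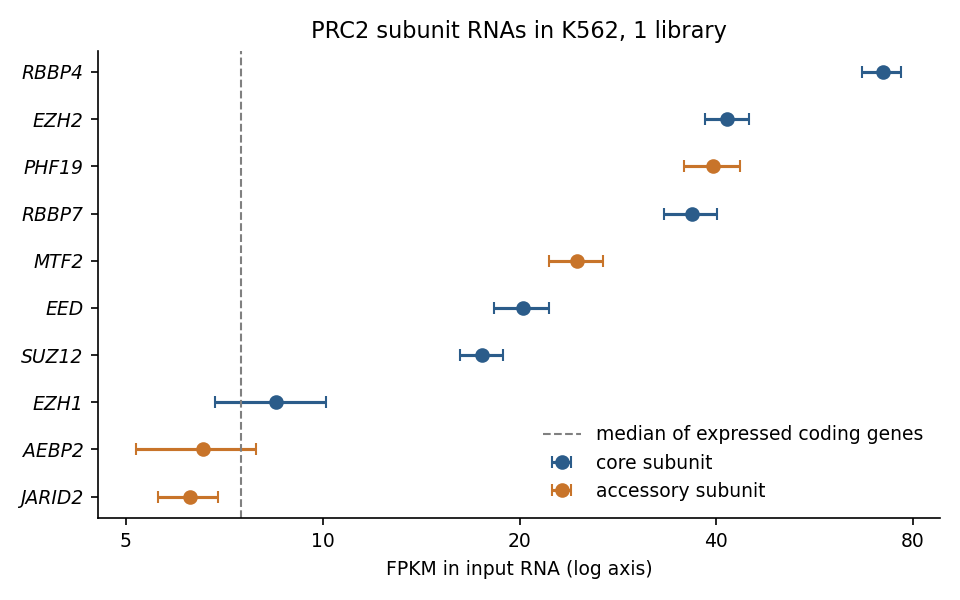
FPKM of the 10 PRC2 subunit RNAs in the input RNA (log axis), with the deposited confidence bounds as bars, core subunits in blue and accessory subunits in orange. RBBP4 lies above all others at 71.8 FPKM, PHF19 lies among the core subunits, and AEBP2 and JARID2 lie below the dashed line, the 7.49 FPKM median of expressed protein-coding genes.

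The catalytic subunit EZH2 had 41.6 FPKM (38.4 to 44.8), whereas its paralog EZH1, which forms a less active PRC2 and is typical of cells that no longer divide, had 8.48 FPKM (6.84 to 10.1). EZH2 was thus 4.90-fold above EZH1 (95% interval 3.98 to 6.04) and made up 83.1% of their summed FPKM. The bounds of the pair were far apart. The scaffold subunit SUZ12 had 17.5 FPKM (16.2 to 18.9) and the mark reader EED had 20.2 FPKM (18.3 to 22.2). EED was 1.15-fold above SUZ12 (1.02 to 1.31). This ratio turned to 0.706 when the FPKM of the pseudogene SUZ12P1 was added to that of SUZ12, with nothing added for EED. EZH2 exceeded EED 2.06-fold (1.82 to 2.33) and SUZ12 2.37-fold (2.13 to 2.65). The chaperone-like subunit RBBP4 had 71.8 FPKM (66.9 to 76.8) and RBBP7 had 36.7 FPKM (33.3 to 40.0), a ratio of 1.96 (1.75 to 2.20). Together RBBP4 and RBBP7 reached 108.5 FPKM, against 50.1 FPKM for EZH2 and EZH1 together.

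Among the accessory subunits, the Polycomb-like members MTF2 and PHF19 were well above the JARID2 and AEBP2 pair. This did not hold for PHF1, a Polycomb-like protein outside the members. It had 4.47 FPKM (3.06 to 5.88), below JARID2 and AEBP2, with bounds that overlapped those of both. PHF19, which binds methylated lysine 36 of histone H3 through its Tudor domain, had 39.6 FPKM (35.7 to 43.5). MTF2, which binds unmethylated CpG-rich DNA, had 24.5 FPKM (22.2 to 26.9), 0.620 times the PHF19 value (0.540 to 0.711). JARID2, a DNA- and RNA-binding protein that lacks demethylase activity, had 6.26 FPKM (5.60 to 6.91), and the zinc finger protein AEBP2 had 6.55 FPKM (5.19 to 7.92). PHF19 was 6.33-fold (5.48 to 7.30) and MTF2 was 3.92-fold (3.40 to 4.52) above JARID2. The sum of MTF2 and PHF19, a grouping made after the values were seen and without PHF1, was 64.1 FPKM. Against 12.8 for JARID2 and AEBP2, this was a ratio of 5.00 (4.36 to 5.74).

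In the order of levels, the deposited bounds of neighbours overlapped in 6 of the 9 steps, and in 4 of these the interval of the ratio included 1: EZH2 over PHF19 (ratio 1.05, 0.928 to 1.19), PHF19 over RBBP7 (1.08, 0.944 to 1.23), EZH1 over AEBP2 (1.29, 0.974 to 1.72) and AEBP2 over JARID2 (1.05, 0.830 to 1.32). The other 5 steps had ratio intervals above 1, although the bounds of MTF2 and EED and those of EED and SUZ12 overlapped. Of these 5, the step from EED to SUZ12 was the smallest and that from SUZ12 to EZH1, 2.07-fold (1.68 to 2.55), the largest. Core and accessory subunits overlapped in level. The 6 core genes had a median of 28.4 FPKM and a range of 8.48 to 71.8, and the 4 accessory genes had a median of 15.5 and a range of 6.26 to 39.6. The medians of log2(FPKM + 1) differed by 1.03. With the groups set at opposite ends of their deposited bounds, the difference ran from 0.71 to 1.32, a range that is not a confidence interval. Genes are not replicates, so no test was run, and this difference was 1.44 without EZH1 and 0.51 without RBBP4 and RBBP7.

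Sequence copies elsewhere in the genome can bear on the values of several members, to unlike degrees. The table lists 8 pseudogenes of EZH2, RBBP4 and SUZ12, of which 5, including EZH2P1, were at 0 FPKM. SUZ12P1 (chr17:30709299-30790908, GRCh38) had 11.1 FPKM (9.24 to 13.0), 63.3% of the SUZ12 value. A BLAST search of the SUZ12 transcript found copies at 90% identity or more for 27.5% of its bases, and 7.41% had one at 99% or more. Reads that fit SUZ12 and SUZ12P1 equally well have a low mapping quality and were discarded, which can lower both values. Whether reads listed under SUZ12P1 stem from SUZ12 was not tested. With SUZ12P1 added to SUZ12, the sum was 28.6 FPKM, above EED and MTF2, and the ratio of EZH2 to SUZ12 fell from 2.37 to 1.45. This sum joins values scaled to different transcript lengths, and no copies were added for EED or MTF2. It is therefore not an estimate of the SUZ12 level. For RBBP4, 43.9% of the transcript had a copy elsewhere, over 3856 alignments. The longest were 5 processed pseudogene copies, RBBP4P1 to RBBP4P5, of 2146 to 2323 bases at 91.6% to 96.6% identity. These lay within the first 2323 of 7883 bases, so the 43.9% also holds many shorter copies elsewhere in the genome. RBBP4P1 had 0.419 FPKM and RBBP4P2 had 0.583 FPKM, both under 1% of RBBP4, and the other RBBP4 pseudogenes were listed at 0. For the others, copies covered 22.3% of the EED, 20.9% of the EZH2 and 7.85% of the RBBP7 transcript. They covered 2.16% of the AEBP2 and 1.87% of the JARID2 transcript, and none was found for EZH1, MTF2 and PHF19. At 99% identity or more, copies covered 1.31% of RBBP4, 1.87% of JARID2 and 0% of EED, EZH2, RBBP7 and AEBP2. Genes that overlap a member and reach 1 FPKM were Metazoa_SRP (6.36 FPKM) in EZH2, TXLNG (10.5) at RBBP7, RP11-841C19.1 (1.76) in AEBP2, and JARID2-AS1 (1.88) and RNU6-645P (8.86) in JARID2.

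The remaining PRC2 genes and the other complexes of RBBP4 and RBBP7 were read from lists of 23 genes. The share to set beside their counts is that of all protein-coding entries, of which 49.2% reached 1 FPKM. Of the 5 other PRC2 genes, 3 reached 1 FPKM: LCOR with 14.1 and LCORL with 7.68, whose loci encode further PRC2 partners, and PHF1, the remaining Polycomb-like protein, with 4.47. EPOP, an accessory subunit of the Polycomb-like form, had 0.333 FPKM, and EZHIP, an inhibitor of EZH2 listed under the symbol CXorf67, was at 0. The 11 genes of NuRD, a deacetylase and remodelling complex, all reached 1 FPKM, with a median of 12.0, from GATAD2B with 5.30 to the remodeller CHD4 with 67.4. Both CAF-1 genes (CHAF1B 6.61, CHAF1A 24.4) and all 5 SIN3 genes (SIN3B 6.26 to SAP18 30.4) did so too. How much of the RBBP4 and RBBP7 RNA serves PRC2 and how much serves these complexes cannot be told apart here.

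Of the 10 members, EZH2 was the only one with RNA fragments among the 900 listed. The nearest fragment to the other 9 genes lay between 232019 bases (RBBP7) and 15180777 bases (MTF2) away. Among the 2773 protein-coding genes within the members' range of FPKM and gene span, 4.62% held a fragment, and among all 9728 protein-coding genes with at least 1 FPKM 2.37% did, so 1 of 10 is too small a number to read further. The 4 fragments covered 1576 bases, or 2.05% of the EZH2 span (chr7:148807383-148884321, minus strand), and lay within its 3′ part, from 66204 to 75011 bases after the gene start. In the canonical transcript (20 exons, 2654 bases) they touched 5 exons and covered 25.4% of the bases.

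**Figure D2:**
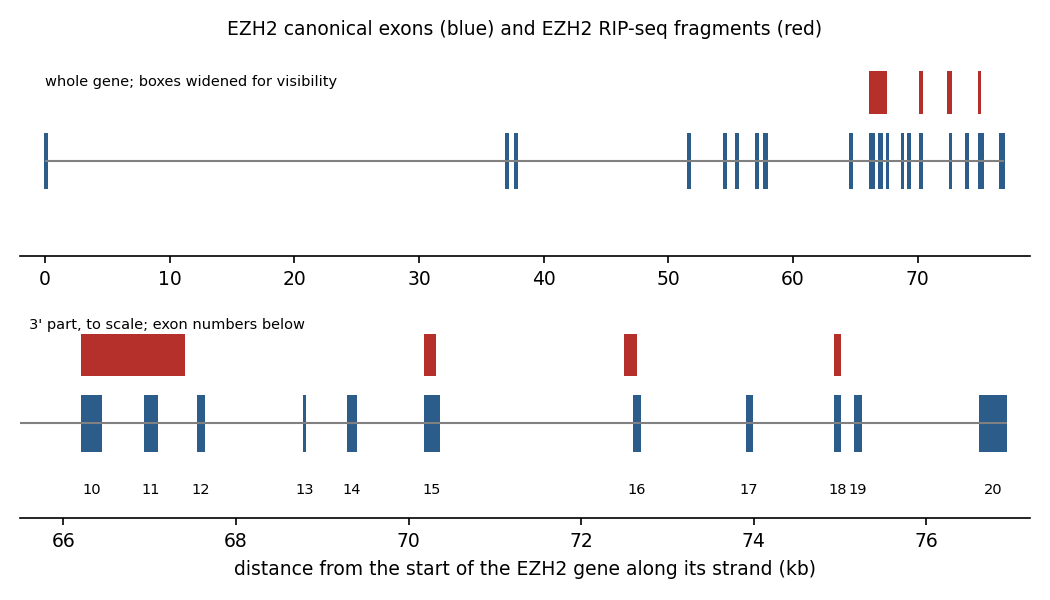
Position of the 20 canonical EZH2 exons (blue) and the 4 RNA fragments (red) by distance from the gene start along the EZH2 strand in kb, for the whole gene with boxes widened (top) and for the 3′ part to scale (bottom). The fragments begin at the starts of exons 10, 15 and 18, and before exon 16.

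The fragment sequences are shown because they carry exon boundaries. All are given on the EZH2 strand, 5′ to 3′, from GRCh38, with bases of canonical exons in capitals and all other bases in lower case. The fragment over exons 10 and 11 (chr7:148816907-148818117) has 1211 bases, of which the first 300 (chr7:148817818-148818117) are printed. The others are whole: exon 15 (chr7:148814007-148814137, 131 bases), exon 16 (chr7:148811671-148811823, 153 bases) and exon 18 (chr7:148809310-148809390, 81 bases).
exon 10 to 11: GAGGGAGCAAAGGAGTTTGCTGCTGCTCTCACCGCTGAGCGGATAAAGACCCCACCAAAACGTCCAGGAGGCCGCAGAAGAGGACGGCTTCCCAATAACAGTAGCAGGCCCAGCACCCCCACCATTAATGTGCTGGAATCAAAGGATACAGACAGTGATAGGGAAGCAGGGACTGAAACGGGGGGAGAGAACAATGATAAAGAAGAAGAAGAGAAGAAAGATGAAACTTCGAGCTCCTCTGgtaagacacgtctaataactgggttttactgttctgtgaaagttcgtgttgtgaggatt
exon 15: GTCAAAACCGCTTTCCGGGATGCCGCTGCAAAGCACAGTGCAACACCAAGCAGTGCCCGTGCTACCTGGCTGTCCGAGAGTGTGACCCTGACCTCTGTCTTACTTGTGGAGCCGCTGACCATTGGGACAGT
exon 16: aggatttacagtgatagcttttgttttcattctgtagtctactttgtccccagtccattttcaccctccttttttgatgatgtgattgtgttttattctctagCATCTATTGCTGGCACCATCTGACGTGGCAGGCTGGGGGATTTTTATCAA
exon 18: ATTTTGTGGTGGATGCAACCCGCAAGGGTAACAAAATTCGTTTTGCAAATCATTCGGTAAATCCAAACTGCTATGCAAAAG

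The 5′ end of each fragment coincided with an annotated EZH2 exon start, and that of exon 18 spanned exactly its exon. The fragment over exons 10 and 11 holds both exons whole, 241 and 170 bases, with intron 10 and the beginning of intron 11; its coding part is codons 334 to 470 of 751. Only 33.9% of it is canonical exon, but 2 other annotated isoforms cover all of it with 1 exon. The exon 15 fragment holds 131 of the 179 bases of its exon (codons 558 to 601). The exon 16 fragment holds the last 103 bases of intron 15, which are exonic in 1 annotated isoform with a retained intron, and 50 bases of exon 16 (codons 618 to 634). The exon 18 fragment holds codons 677 to 704. Of the 900 fragments, 24 had an edge at an exon edge, and the other 20 lay in other genes. The authors' peak caller treated exonic and other alignments separately.

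By base composition, the exon 15 fragment had 27.5% G. This was above 95% of 656 fragments of other genes, which had a median of 20.4%. These are the fragments whose annotated genes had 1 strand, which was taken as theirs and not measured. The other EZH2 fragments had between 20.3% and 22.0% G. Purines made up 37.9% of the exon 16 fragment, below all 656 others, whose lowest value was 38.5% and whose median was 52.7%. Of its 153 bases, 103 are the end of intron 15. The exon 15 and exon 16 fragments have 131 and 153 bases, against a median of 2135.5 for all fragments outside EZH2. Short stretches vary more in composition, so these ranks are not like for like. The exon 18 fragment has a copy of 81 bases at 98.8% identity in EZH2P1, which was listed at 0 FPKM. The other 3 fragments had no copy of 50 bases or more at 90% identity.

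The study also designed an sgRNA to knock out EZH2, which is shown because its target lies beside 1 of the fragments (PAM in capitals).
EZH2 sgRNA with PAM: gaattcatctcagaatactgTGG
It matched 1 site in GRCh38, with the protospacer at chr7:148811632-148811651 on the minus strand, in exon 16 over codons 641 to 647, 19 bases downstream of the exon 16 fragment. No library of edited cells is used here.

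The fractions were compared by the reads on each EZH2 fragment, as deposited and unscaled, because the sum over the listed fragments is not the depth of a library. These sums were 7929 reads for the cytoplasm, 105661 for the nucleus, 57985 for polyA+ and 106051 for polyA- RNA. EZH2 took 249 of the cytoplasmic reads (3.14%) and 154 of the nuclear reads (0.146%). It took 397 of the polyA+ reads (0.685%) and 85 of the polyA- reads (0.0802%). Among the EZH2-enriched RNAs, the EZH2 transcript thus held a larger part of the cytoplasmic and polyA+ reads than of the nuclear and polyA- reads.

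The fragment over exons 10 and 11 had 204 reads in the cytoplasmic library, 103 in the nuclear one, 305 in polyA+ and 68 in polyA-. The exon 15 fragment had 10, 13, 18 and 5 reads in the same order of libraries. The exon 16 fragment had 18, 21, 36 and 6 reads. In the exon 18 fragment these were 17, 17, 38 and 6 reads. In each of the 4 fragments polyA+ RNA had the most reads and polyA- RNA the fewest. Per kilobase, the cytoplasmic reads ranged from 76.3 (exon 15) to 210 (exon 18), against a median of 1.12 over all fragments, and stood at the 98.7 percentile or higher. In nuclear RNA they ranged from 85.1 to 210 against a median of 27.7, between the 88.7 and the 99.2 percentile, and in polyA+ RNA from 137 to 469 against a median of 7.28, at the 97.9 percentile or higher. The EZH2 fragments were thus among the denser ones in the nucleus as well. In polyA- RNA the EZH2 fragments had 38.2 to 74.1 reads per kilobase, against a median of 28.8, between the 62.2 and the 86.4 percentile. The 3 short fragments are at or near the length of 1 read, so reads that reach over their edges weigh more in the value per kilobase than they do in a long fragment; the ratio of 2 libraries does not use the length.

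**Figure D3:**
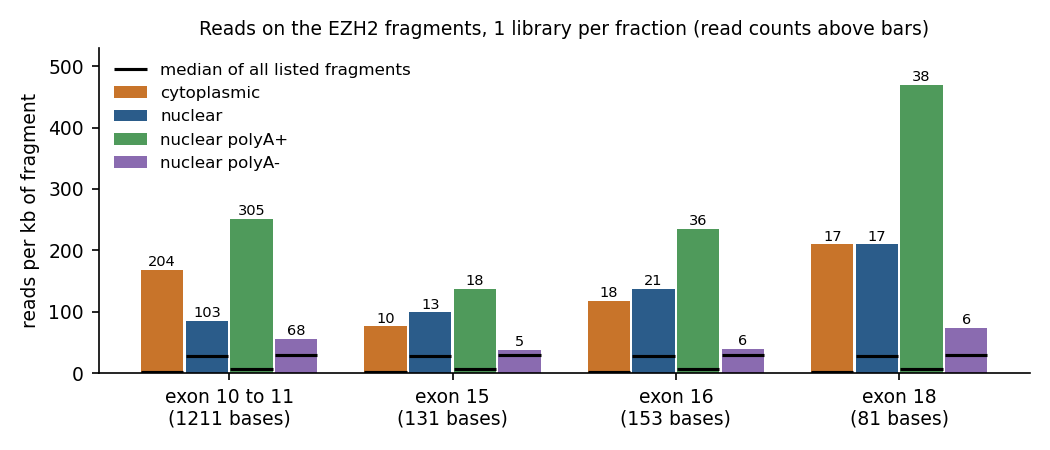
Reads per kilobase on the 4 EZH2 fragments in the 4 fraction libraries (1 library each), with the read counts above the bars and the median of all 900 fragments as black lines. PolyA+ RNA is the highest bar and polyA- RNA the lowest in each fragment, and the cytoplasmic bars stand far above their median of 1.12.

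Between nucleus and cytoplasm, the fragment over exons 10 and 11 had 0.505 nuclear reads per cytoplasmic read (exact 95% Clopper-Pearson interval 0.394 to 0.643), the lowest ratio of the 844 fragments with enough reads for one. The ratio was 1.30 (0.527 to 3.31) in exon 15, 1.17 (0.592 to 2.32) in exon 16 and 1.00 (0.480 to 2.08) in exon 18; these intervals include 1, and all 3 ratios fell below 1 under each scaling to the listed reads. From the lowest, these fragments ranked 17, 14 and 9 of 844, and the ranks do not depend on scaling. Summed over the 4 fragments, the ratio was 0.618 (0.503 to 0.759). Without the long fragment it was 1.13 (0.744 to 1.73), so the excess of cytoplasmic reads rests on that fragment. The median of all fragments was 13.4. Cytoplasmic reads had a median of 2 per fragment, and counts under 3 were set to 3. Many of the ratios behind this median and behind the nuclear call below therefore have that floor as denominator. None of the 4 EZH2 fragments was at least 2-fold higher in nuclear RNA, a call met by 88.4% of all fragments, and none was at least 2-fold higher in cytoplasmic RNA, a call met by 0% of them (0 of 900). The cytoplasmic call rests on the absence of scaling: 4 of 4 EZH2 fragments met it under each of the 3 scalings to the listed reads, with 216 and 225 of the 900 meeting it under the first and the second, while 0 of 4 met the nuclear call under any. All intervals cover counting error in these libraries only.

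Within the nucleus, polyA+ reads exceeded polyA- reads in each EZH2 fragment. The ratio was 4.49 (3.44 to 5.92) over exons 10 and 11, 3.6 (1.29 to 12.4) in exon 15, 6.0 (2.50 to 17.4) in exon 16 and 6.33 (2.66 to 18.3) in exon 18. Their sum gave 4.67 (3.69 to 5.98), and the 3 short fragments alone gave 5.41 (3.20 to 9.69). Thus 4 of 4 were at least 2-fold higher in polyA+ RNA, against 3.78% of all fragments (34 of 900), and 0 of 4 were at least 2-fold higher in polyA- RNA, against 64.3%. Both EZH2 counts stayed at 4 and 0 under each of the 3 scalings, but the shares over all 900 fragments did not. With libraries scaled to their listed reads, 98 met the polyA+ call and 408 the polyA- call. With the median ratio set to 1, these were 232 and 195. Exons 18 and 16 ranked first and second of 841 fragments by polyA+ over polyA- reads, and exons 10 to 11 and exon 15 ranked 5 and 9. The 4 fragments come from 1 gene and are not independent of each other.

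**Figure D4:**
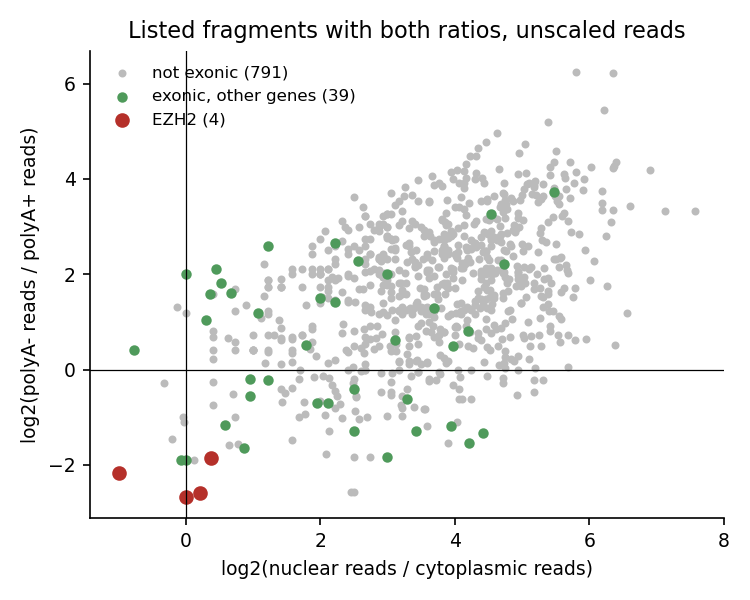
Log2 ratio of nuclear to cytoplasmic reads (x axis) and of polyA- to polyA+ reads (y axis) for the fragments with both ratios: 791 not exonic in grey, 39 exonic fragments of other genes in green and the 4 EZH2 fragments in red. The EZH2 fragments lie at the lower left, where cytoplasmic and polyA+ reads are highest relative to the others, with a few fragments of other genes, exonic or not, near them.

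Exonic fragments of other genes lay between EZH2 and the rest in their medians. The 39 fragments outside EZH2 with at least 50% of their length in annotated exons had a median of 4.35 nuclear reads per cytoplasmic read and 1.44 polyA- reads per polyA+ read, and 10 of them (25.6%) were at least 2-fold higher in polyA+ RNA. Of the 20 other fragments with an edge at an exon edge, 7 (35%) met that call. Of the 857 fragments that were not exonic, 2.33% did. Among the 8 other fragments under 200 bases, 1 did. The ratio of nuclear to cytoplasmic reads had a median of 1.66 in the 20 edge fragments. In the 8 short ones its median was 1.33, from 0.591 to 2.33, so a ratio near 1 was not particular to EZH2. The medians of polyA- reads per polyA+ read in these sets were 1.74 and 3.25.

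The fragments most like EZH2 in how their reads fell across the 4 libraries, by Euclidean distance of the 4 shares among 700 fragments with at least 50 reads, were mostly from GOLGA1, a gene for a Golgi coiled-coil protein. For the exon 15, exon 16 and exon 18 fragments the nearest was the GOLGA1 fragment at chr9:124928188-124928285, wholly exonic, with 16 cytoplasmic, 16 nuclear, 26 polyA+ and 7 polyA- reads (distances 0.0473, 0.0620 and 0.101). For exons 10 to 11 the nearest was another GOLGA1 fragment (chr9:124921129-124921892, distance 0.111), with 47, 41, 96 and 35 reads. The rest came from GOLGA1, COA1, C5orf66 with H2AFY, and RNF169 with XRRA1. EZH2 gave 30% of its reads on exons 10 to 11 from cytoplasmic RNA, against 21.5% in that GOLGA1 fragment.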

How the data were processed

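All values come from 5 wild type K562 libraries, 1 per group. The FPKM table that the authors deposited for the input RNA was made with cuffdiff and gives a lower and an upper confidence bound per gene. For the 4 fractions the authors deposited raw read counts, made with featureCounts on the fragments of the EZH2 RIP-seq. Libraries were rRNA-depleted and stranded (ScriptSeq V2), trimmed with TrimGalore and mapped with STAR to GRCh38 with GENCODE 26; duplicate reads and those mapped with a quality below 20 were discarded, which lowers counts in repeated sequence. The strand setting of featureCounts is not given in the sources used here.

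Starts of loci and fragments were taken to count from 0 in the files and were raised by 1. For the fragments, 8 raised starts met an exon start, and 0 unraised ones did. Locus starts were not checked in this way. Exons came from GENCODE 44. Ratios of FPKM have intervals from the bounds (delta method on the log scale), and ratios of reads have exact 95% Clopper-Pearson intervals; a library under 3 reads was set to 3, and no ratio was ranked where neither library exceeded 3. A fragment was called at 2-fold. With 1 library per group no test between conditions is possible, and no p-value is given. The fold call was tested on simulated Poisson counts at equal depth, with low counts raised and with changes well above 2-fold. That test therefore does not cover libraries of unequal or unknown depth, fragments with few reads or changes near 2-fold. Copies were sought with BLAST 2.17.0 (megablast, at least 50 bases and 90% identity). Python 3.11.15, numpy 2.4.6, pandas 2.3.3, scipy 1.17.1 and matplotlib 3.10.9 were used. Named genes were all 10 members, their listed pseudogenes, the extremes of each gene list and, per EZH2 fragment, the 5 fragments with the nearest read shares; other genes were named after their values were seen. Members and lists were chosen with earlier results of these data known.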

Additional observations from a re-analysis of the deposited data

How the results depend on the processing

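No paired analysis was possible because each group has 1 library. For the same reason no library could be left out. The median percentile of the members was 96.7 among all entries, 84.9 among entries with at least 1 FPKM and 91.5 among protein-coding entries. The core to accessory difference (1.03) was 1.44 without EZH1 and 0.51 without RBBP4 and RBBP7, and kept its direction with means (0.84) and with a pseudocount of 0.1 (1.09). Adding listed pseudogenes moved EZH2 over SUZ12 to 1.45, and reversed EED over SUZ12 from 1.15 to 0.706, alternatives chosen after seeing the data, as was counting canonical exons only, by which 2 of the 4 EZH2 fragments were exonic.

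The summed nuclear to cytoplasmic ratio of EZH2 (0.618) was 0.0464 with libraries scaled to their listed reads, 0.0462 with the median ratio set to 1 and 0.0424 with sums without the 10 fragments with the most reads. The polyA- to polyA+ ratio (0.214) was 0.117, 0.0620 and 0.0924 in the same order. The direction of both held under every scaling tried. Of all fragments, 187 and 183 were 2-fold higher in nuclear RNA under the first and the second scaling (796 unscaled), and 216 and 225 in cytoplasmic RNA (0 unscaled, 2 at 1.5-fold). In polyA- RNA 408 and 195 were higher under the first and the second scaling and 651 at 1.5-fold (579 unscaled). Of the EZH2 fragments, 4 of 4 were 2-fold higher in cytoplasmic RNA under each scaling and 0 of 4 unscaled. In polyA+ RNA the count was 58 at 1.5-fold and 98 and 232 under the first and the second scaling (34 unscaled). The absolute ratio between fractions is thus set by a scale that the listed reads do not fix, whereas ranks are not. Of the settings for the main results, 23 were counted as unchanged, some of them given above. These kept the direction, with values inside the interval or range of the reported one or, for counts, within 1.5 times of it. Depth limits the short fragments most: their polyA- values rest on 5 or 6 reads.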
